A study of Mus musculus with 6 samples.

Results

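Chromatin immunoprecipitation and sequencing (ChIP-seq) of PHF13, also called SPOC1, was done in mouse testis, and this report describes the 25 autosomal windows of 1 Mb in which the deposited regions lay most densely. Each of the 19819 regions on chromosomes 1 to 19 was assigned to the 1 Mb window that held its midpoint, and a window was kept when it held 25 or more regions. Of 2413 autosomal windows 25 met this rule (1.04%), and they held 868 regions, 4.38% of the autosomal regions and part of a list of 39096. The windows were chosen by their number of regions, a measured value, and the score, length and repeat come from the same list, so all of these are given as a description without a test.

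The series has 3 SPOC1 ChIP and 3 input libraries from testis of C57Bl/6 mice aged 5 weeks. Wild-type labels are on 1 ChIP and 2 input libraries, and Phf13-/- labels on 2 ChIP libraries and 1 input. The libraries of animal D821 carry different genotypes, so genotype formed no groups. The authors deposited 1 list for the whole series with no value per library, so no value has a replicate error. No source used here says which libraries went into it. The depth of the libraries is unknown, and the regions are not taken as PHF13 binding sites.

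PHF13 is a chromatin protein whose PHD finger binds histone H3 when its lysine K4 is methylated. Most regions of the list lie on transposable elements. The youngest of these in mice are LINE-1 (L1) retrotransposons of the families L1Md_T and L1Md_A, which still move, and endogenous retroviruses with long terminal repeats (LTR), such as the intracisternal A particle IAPEz-int. The mouse genome also carries gene families that grew by repeated duplication of a stretch of chromosome, among them the vomeronasal receptors Vmn1r and Vmn2r, which detect pheromones, and the Pramel genes, many of which are expressed in germ cells. Copies of such stretches can be nearly identical, so that a short read fits several places. No source used here says how the authors placed reads of this kind.

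The windows separated into 19 in which promoters of nearby genes were near copies of each other and 6 in which none were. To measure duplication without the ChIP data, the RefSeq promoters of GRCm38.p6 (250 bases before to 50 after the start) were compared with each other. A near copy was a promoter of another gene within 2 Mb on the same chromosome that aligned over 200 or more bases with at least 90% identity. In 19 of the 25 windows 3 or more genes had a near-copy promoter, against 6.88% of all autosomal windows. In the other 6 no gene had one. These 6 had only 1 to 9 genes each with a promoter in the table (median 2), too few in most to reach 3. Duplication outside RefSeq promoters was not measured. Over the 25 windows 244 of 333 genes with a promoter in the table had a near copy (73.3%), against 1076 of 25415 in all other autosomal windows (4.23%). With 80% identity the same 19 windows held 250 such genes, though recovery of copies near that identity was not tested. Most windows with 3 or more near-copy promoters were not dense. Of the 166 autosomal windows with 3 or more near-copy promoters 19 reached 25 regions (11.4%), and the median over the 166 was 11. Of the 2247 windows with fewer, 6 reached it (0.267%), and the median was 7.

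Promoter sequences show how alike the copies are. In the 3 adjacent Vmn1r windows of chromosome 7 (20 to 23 Mb), regions covered part or all of the promoter of 6 of 63 Vmn1r genes. All 6 regions had no repeat named at the centre, but the list names none for regions at promoters. The 4 sequences below are the 250 bases before the RefSeq start, 5′ to 3′ on the minus strand, or on the plus strand for Vmn1r137. Capitals mark the bases inside a deposited region, and the pairs differ as given after them. The positions are chr7:20205608-20205857 for Vmn1r241, chr7:20122580-20122829 for Vmn1r240, chr7:22692318-22692567 for Vmn1r257 and chr7:21994337-21994586 for Vmn1r137.
Vmn1r241: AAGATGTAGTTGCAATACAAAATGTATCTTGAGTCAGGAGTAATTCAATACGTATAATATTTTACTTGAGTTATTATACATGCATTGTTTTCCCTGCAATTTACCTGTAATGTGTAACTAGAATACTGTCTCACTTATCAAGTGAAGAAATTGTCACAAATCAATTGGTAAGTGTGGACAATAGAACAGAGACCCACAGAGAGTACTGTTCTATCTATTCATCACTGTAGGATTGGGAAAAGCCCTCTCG
Vmn1r240: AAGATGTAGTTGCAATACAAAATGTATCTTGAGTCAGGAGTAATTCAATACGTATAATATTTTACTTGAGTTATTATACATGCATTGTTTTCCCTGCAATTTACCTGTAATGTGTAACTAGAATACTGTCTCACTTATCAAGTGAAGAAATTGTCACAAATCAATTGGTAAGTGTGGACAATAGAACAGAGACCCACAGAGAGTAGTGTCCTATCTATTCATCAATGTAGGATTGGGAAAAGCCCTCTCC
Vmn1r257: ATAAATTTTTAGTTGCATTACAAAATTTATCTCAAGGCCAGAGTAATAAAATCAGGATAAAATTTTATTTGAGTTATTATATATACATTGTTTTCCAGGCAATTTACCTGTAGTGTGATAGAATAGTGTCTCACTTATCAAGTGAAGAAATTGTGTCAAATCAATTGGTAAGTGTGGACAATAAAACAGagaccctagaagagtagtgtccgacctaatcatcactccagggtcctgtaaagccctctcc
Vmn1r137: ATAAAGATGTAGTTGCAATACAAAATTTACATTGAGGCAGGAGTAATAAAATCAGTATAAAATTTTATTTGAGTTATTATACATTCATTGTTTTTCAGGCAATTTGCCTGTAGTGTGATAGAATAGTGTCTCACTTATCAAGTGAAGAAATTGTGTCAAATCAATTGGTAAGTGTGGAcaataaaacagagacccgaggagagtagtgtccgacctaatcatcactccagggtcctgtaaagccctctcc

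The promoters of Vmn1r241 and Vmn1r240 were 98.4% identical, with 4 mismatches. Vmn1r251, whose promoter lies at chr7:22201265-22201514, had the same 250 letters as Vmn1r241 (100% identity). The region at Vmn1r241 (20205589 to 20206089) and the region at Vmn1r251 (22201262 to 22201887) carried the same score of 6.58, over 500 and 625 bp. Vmn1r138 and Vmn1r257 were also identical to each other, and their regions scored 5.31 and 5.95. Equal scores were not particular to identical promoters: 5.95 was the score at Vmn1r240, at Vmn1r257 and at Gm41092 of chromosome 14. Except at Vmn1r137 (12.5), regions at the covered Vmn1r promoters scored 5.31 to 6.58, near the autosomal minimum of 4.25. Over the 15 pairs of the 6 covered promoters the identity ran from 81.5% to 100%, with a median of 83.4%. A region was not called at every copy of such a sequence. Of the 57 Vmn1r promoters without a region, 33 were at least 95% identical to a covered one and 5 were identical to one, namely those of Vmn1r111, Vmn1r117, Vmn1r118, Vmn1r130 and Vmn1r131. These 5 and the covered promoters were singled out after their values were seen.

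In the Speer window of chromosome 5, regions covered part of 2 promoters, again with no repeat named. They are shown because the regions without a repeat in this window were the most numerous of any window, and as a different kind of sequence from the receptors. The positions are chr5:11911960-11912209 for Gm43131 and chr5:11493110-11493359 for 4930437M23Rik, both on the minus strand, and capitals again mark bases inside a region.
Gm43131: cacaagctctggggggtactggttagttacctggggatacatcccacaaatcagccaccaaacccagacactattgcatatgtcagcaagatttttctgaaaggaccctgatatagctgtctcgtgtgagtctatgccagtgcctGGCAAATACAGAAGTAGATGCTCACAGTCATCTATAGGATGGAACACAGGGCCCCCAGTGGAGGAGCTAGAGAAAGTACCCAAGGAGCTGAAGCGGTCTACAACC
4930437M23Rik: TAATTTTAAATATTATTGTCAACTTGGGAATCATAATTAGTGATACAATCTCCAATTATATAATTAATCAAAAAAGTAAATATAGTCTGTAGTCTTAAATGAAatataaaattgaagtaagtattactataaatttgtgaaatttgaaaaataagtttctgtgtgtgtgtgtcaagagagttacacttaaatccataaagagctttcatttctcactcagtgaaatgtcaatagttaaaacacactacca

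Both regions were 500 bp long with a score of 6.16. GC content was 49.6% in the first promoter and 24.8% in the second, and the pair aligned with 48.9% identity. The last covered promoter, of Gm41092 on chromosome 14, shared 3 bases with its region. In all, regions touched the promoters of 9 of the 333 genes. Neither this count nor that of the covered Vmn1r promoters was made for promoters in other autosomal windows. Whether regions touched promoters more or less often here than elsewhere was therefore not tested, and the covered promoters are given as examples of sequence only.

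**Figure D1:**
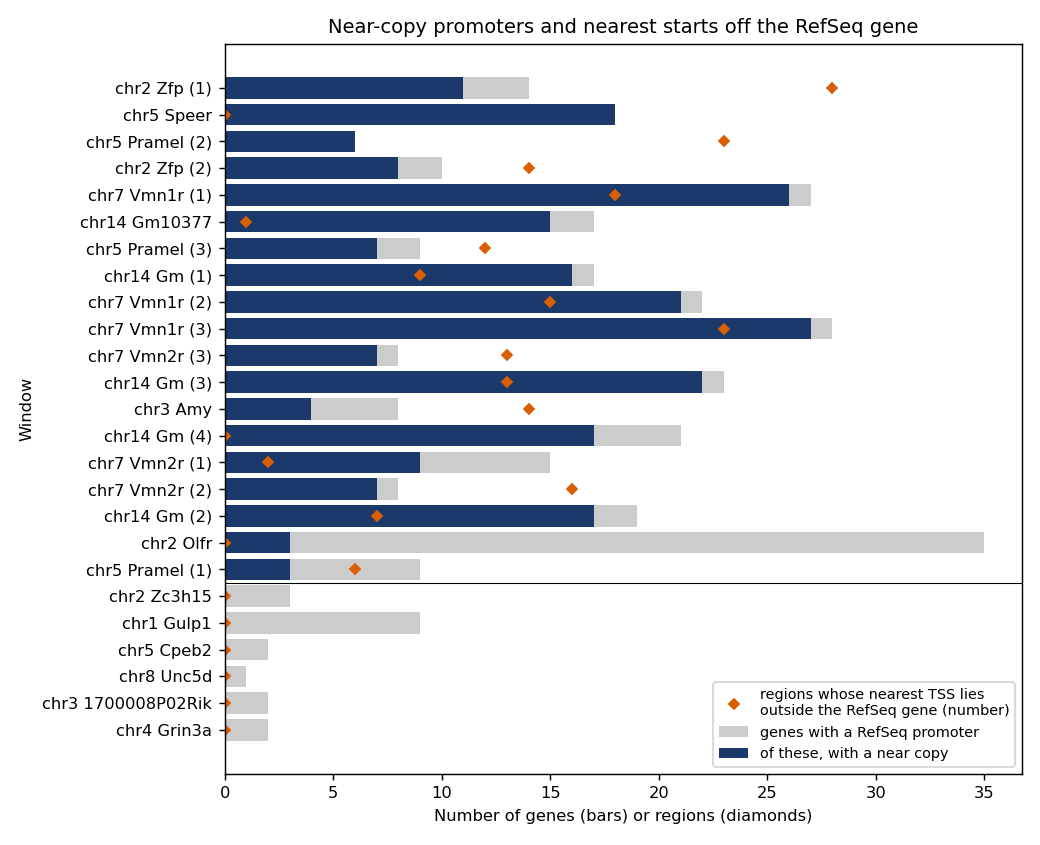
Number of genes with a RefSeq promoter in each of the 25 windows (grey bars), how many of them had a near copy (blue bars), and the number of regions whose nearest start site lay outside the RefSeq gene of that name (orange diamonds). Windows are named by chromosome and gene family or nearest gene, and the 6 windows under the line had no near-copy promoter and no such region.

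The repeat mix differed between the 2 kinds of window. In the 19 windows with near-copy promoters 281 of 701 regions were centred on LINE elements (40.1%, Wilson 95% interval 36.5 to 43.8%), 123 on LTR elements (17.5%) and 247 had no repeat named at the centre (35.2%, 31.8 to 38.8%). In the 6 windows without such promoters LINE elements held 140 of 167 regions (83.8%, 77.5 to 88.6%), LTR elements held 20 (12.0%), and 0 lacked a repeat, for which the Wilson interval reaches 2.25% and a limit of 3 counts gives 1.8%. The other autosomal regions had 73.7% on LINE elements and 17.9% on LTR elements, with 1.83% lacking a repeat. L1Md_T and L1Md_A together held 27.5% of the regions in the 19 windows, 77.8% in the 6 windows and 66.0% elsewhere. The intervals cover counting error only, and regions of 1 window are not independent.

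Regions without a repeat made up a larger share in the 19 windows than elsewhere, but the rule counted these regions too. With only regions that name a repeat counted, 12 of the 25 windows reached the threshold, among them all 6 without near-copy promoters. The shares without a repeat are therefore partly set by the rule. Of the 593 autosomal regions without a named repeat 247 lay in the 19 windows (41.7%), although these windows held 3.54% of all autosomal regions. By the authors' annotation 168 of the 247 were intergenic (68.0%), 58 intronic and 7 at a promoter. In the list, regions at promoters, termination sites and exons name no repeat, so a repeat there may go unreported. A count of 5 or more was reached in 17 of the 25 windows and in 8 of the 2286 other windows that held a region. Windows chosen for many regions reach a fixed count more easily, and these counts are not scaled to the regions per window. The highest count in any other window was 9, reached on chromosome 14 (6 to 7 Mb, 23 regions, 22 genes with a near-copy promoter) and on chromosome 8 (123 to 124 Mb, 10 regions, 0 such genes). In the 147 other windows with near-copy promoters the share without a repeat was 5.5%, against 1.51% in the remaining windows.

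**Figure D2:**
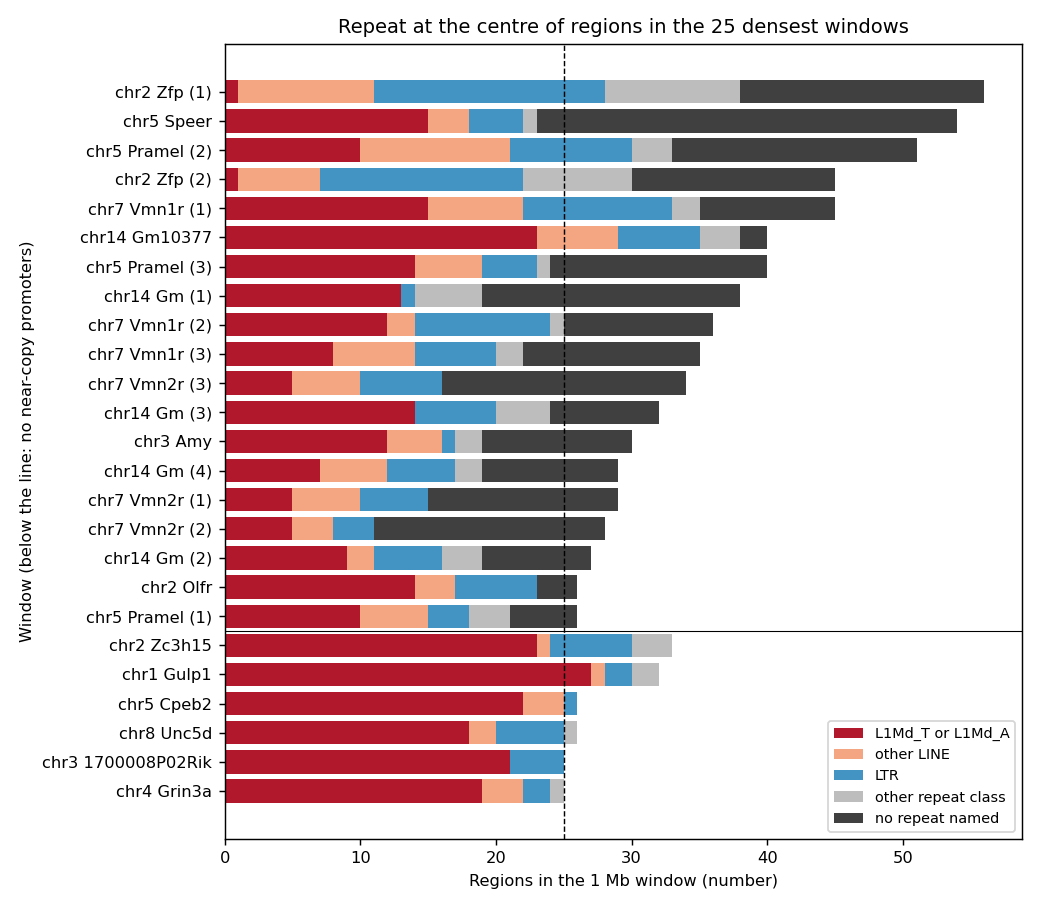
Regions in each of the 25 windows (bar length, number) by the repeat at their centre. The dashed line marks the threshold of 25. Above the solid line are the 19 windows with near-copy promoters, each with regions lacking a repeat (black), and below it are the 6 windows without, where L1Md_T and L1Md_A (dark red) made up 69.2% to 84.6% of the regions.

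The authors' score was lower in the 19 dense windows with near-copy promoters than in the other groups. The unit of the score is not stated, and it grows with length, so each score was divided by the length in kb as well (score per kb). The median score was 10.4 in the 19 windows (quartiles 7.01 and 15.9), 20.6 in the 6 windows (14.7 and 32.3) and 20.4 in the other autosomal regions (13.6 and 37.4). Per kb the medians were 16.3, 28.5 and 28.8. In the 147 further windows with near-copy promoters, regions had a median score of 18.5 and a median of 28.4 per kb. Regions were also shorter in the 19 windows, with a median length of 500 bp against 690 bp in the 6 windows and 694 bp elsewhere. In the 19 windows 383 of 701 regions (54.6%) were exactly 500 bp long. That share was 34.7% in the 6 windows, 41.2% in the 147 further windows and 36.2% in all other autosomal regions. The lower quartile was 500 bp in every group. The 25 windows together covered 702 kb with regions and held 3.15% of the covered autosomal length and 2.42% of the autosomal score. Each window held between 1 and 19 regions at or above the autosomal median score, the fewest in both Zfp windows and the most in the Gulp1 window.

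At repeat names with 10 or more regions in the dense windows, the score per kb was mostly close to that elsewhere. The pooled LTR and other LINE classes had lower medians. At L1Md_T the median score per kb was 28.2 in the 19 windows (113 regions), 28.6 in the 6 windows (74) and 29.5 elsewhere (7500). At L1Md_A the medians were 29.7 (80 regions), 31.4 (56) and 29 (5003), and the quartiles of all these groups overlap. Regions at L1Md_T and L1Md_A were shorter in the 19 windows, with median lengths of 627 and 648.5 bp against 802 and 779 bp elsewhere. Their median scores, not divided by length, were 17.4 and 18.5 against 23.6 and 22.3. At LTR elements the median was 16.1 in the 19 windows (123 regions), 30.5 in the 6 windows (20) and 31.0 elsewhere (3395). At LINE elements other than these L1 families the medians were 16.6 (88 regions), 25.7 (10) and 26.8 (1463). Regions without a repeat had 12.7 in the 19 windows and 14 elsewhere. IAPEz-int, a young retrovirus, was close to its level elsewhere, with a median of 29.4 in the 19 windows (19 regions) against 32.3 (1746). For the other 6 repeats with 10 or more regions, values over all 25 windows are set beside those elsewhere: the median was 24.2 at L1Md_F3 against 24.1 elsewhere, 25.1 at L1Md_F2 against 24.8, 28.8 at L1Md_Gf against 30.4, and 30.9 at MERVL-int against 32.8. MurSatRep1 had 12.3 against 11.5, so it was low in both, and RLTR45-int had 12.8 against 15.4. Rarer repeats went both ways. The median was lower at RLTR22_Mus (11.5 against 31.8, 8 of its 10 autosomal regions) and L1_Mus3 (16.1 against 24.2, 9 regions). It was higher at L1_Mur2 (16.8 against 11.5, 8 regions) and L1_Mm (31.5 against 29.3, 6 regions). The pooled classes mix elements whose frequencies differ between the dense windows and elsewhere, so their medians alone do not show a lower value at a given element.

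**Figure D3:**
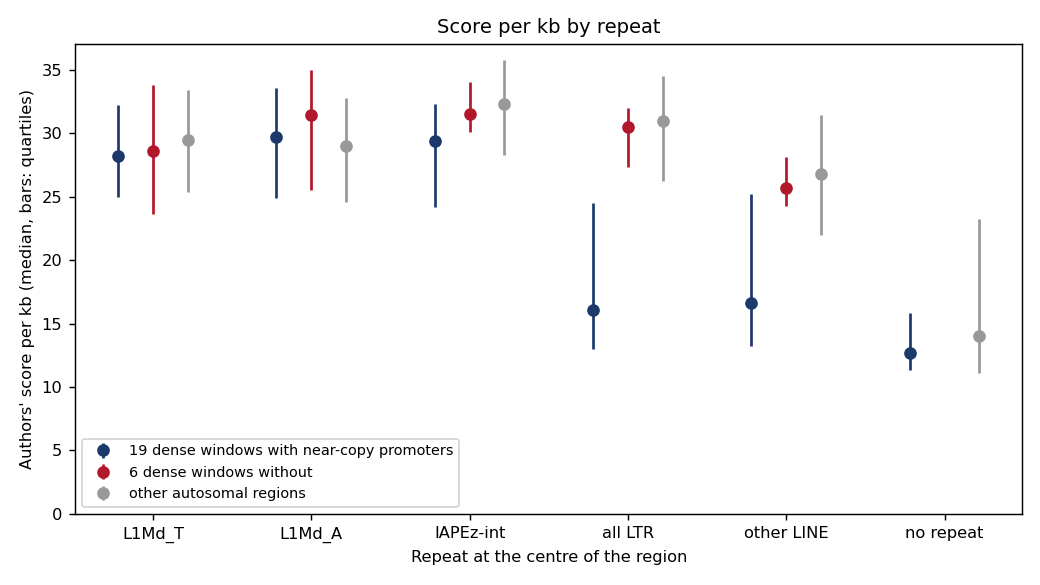
Median authors' score per kb (points; bars are quartiles over regions) by the repeat at the region's centre, in the 19 dense windows with near-copy promoters (blue), the 6 without (red) and all other autosomal regions (grey). The groups lie together at L1Md_T, L1Md_A and IAPEz-int, while the blue points at all LTR and other LINE elements sit near 16, against 26 to 31 for the others.

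Both Zfp windows of chromosome 2 (175 to 177 Mb) held 101 regions. Zfp genes encode zinc finger proteins, a family with many repressors of transposable elements. Genes with a Zfp symbol were nearest to 26 regions of the first window and 2 of the second, and most others were nearest to predicted genes (Gm). The first window had the most regions of any, 56, after a window of 2, and the second had 45, followed by 16. The genes named nearest most often were Zfp967 (15 regions in the first window, listed as Gm14431), Gm14432 (11) and Zfp966 (9, listed as Gm8898), and in the second window Gm14405 (13), Gm14295 (8) and Gm14432 (8). Young L1 was nearly absent: 1 region in each window was at L1Md_T and 0 were at L1Md_A. Instead the 101 regions held 15 of the 20 autosomal regions at MurSatRep1, a repeat of unknown class in the list, 11 of 20 at the LTR element RLTR45-int and 7 of 9 at MYSERV16_I-int. All 5 autosomal regions at MT2B and all 4 at RMER10A also lay here. Introns held 28 of the 56 regions in the first window and 8 of the 45 in the second. The score ran from 4.88 to 46.7 in the first window and from 5.1 to 28.9 in the second, with medians of 8.28 and 7.22. The highest score belonged to an intergenic L1Md_T region (175811640 to 175813555, 46.7), which was also the longest of the first window. In the second it belonged to an L1Md_F3 region (176111818 to 176112728, 28.9), while the longest region lay at a (TAAA)n repeat (176515193 to 176516669, score 17.2).

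The Speer window (chromosome 5, 11 to 12 Mb) held 54 regions, and all 18 of its genes with a promoter had a near copy. Speer genes encode glutamate-rich proteins of developing sperm. Gm6460 was named nearest to 19 regions, Speer1 (listed as Speer1-ps1) to 16 and 1700003C15Rik to 10. No repeat was named for 31 regions (57.4%), the largest count of any window, while 15 were at L1Md_T or L1Md_A. The window before it held 21 regions and the window after it 12. The median score was 8.07 and the median score per kb 13, the lowest of the 25 windows. The highest and longest region lay at the retrovirus MMERVK10C-int (11296124 to 11298182, score 55.6).

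The 3 Pramel windows of chromosome 5 (93 to 96 Mb) held 26, 51 and 40 regions. Pramel genes belong to the family of PRAME, a leucine-rich repeat protein made in germ cells and many tumours. Density was bounded on both sides, with 3 regions in the window before and 8 in the window after. Pramel genes were named nearest to 70 regions of these windows, which is 79.5% of the 88 autosomal regions nearest to a Pramel or Oog gene. They were led by Pramel34 (15 regions in the first window, listed as C87414), with Pramel50 (6) and the cyclin gene Ccng2 (5) next. In the second, Pramel39 (16, listed as A430089I19Rik), Pramel42 (9) and Gm6367 (7) led, and in the third Gm3286 (11), Gm16513 (6) and Pramel47 (5). No repeat was named for 39 regions, and L1Md_T and L1Md_A held 17 each. All 5 autosomal regions at RMER3D-int lay here, with 7 of 13 at L1_Mur2 and 4 of 5 at Lx5b. The median score was 10.5, 9.13 and 11.6 in order of position. In the second window the highest score was at an L1Md_T region (94233312 to 94234557, 41.8) and the longest region was another at L1Md_T (94044336 to 94045759, 38.4). In the third, 1 L1Md_T region was both (95707667 to 95711522, 108.7).

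The Vmn2r windows of chromosome 7 (7 to 10 Mb) held 29, 28 and 34 regions, against 5 in the window before and 12 in the window after. Vmn2r receptors sense peptide pheromones in the vomeronasal organ. Of the 91 regions 84 had a Vmn2r gene nearest, and 49 had no repeat (14, 17 and 18 in order of position), with the largest share of any window in the middle one, 60.7%. Young L1 held 5 regions in each window. All 5 autosomal regions at the old element L1MEg lay in these windows. The leading nearest genes were Vmn2r35 and Vmn2r36 (6 regions each) and Aurkc (3), a kinase of meiotic chromosome segregation, in the first window. They were Vmn2r47 (15), Vmn2r45 (8) and Vmn2r41 (4) in the second, and Vmn2r46 (14), Vmn2r47 (7) and Vmn2r37 (6) in the third. Median scores were 8.28, 7.12 and 7.65, and the highest score in each window was 45.9, 29.3 and 99.4.

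The Vmn1r windows of chromosome 7 (20 to 23 Mb) held 45, 36 and 35 regions, after a window of 0 and before one of 24. Vmn1r receptors sense small volatile pheromones. A Vmn1r gene was nearest to 98 of the 116 regions, spread over 51 nearest genes in all, so single genes had few. Vmn1r118 led the first window (6 regions), with Vmn1r243 (4, listed as Gm4133) and Vmn1r119 (3). Gm4541, Vmn1r120 and Vmn1r155 each had 4 in the second, and Vmn1r137 led the third with 4, before Gm6902 and Vmn1r118 with 3 each. Of the 77 genes with a RefSeq promoter, 74 had a near copy. No repeat was named for 34 regions, and 35 were at L1Md_T or L1Md_A. The LTR element RLTR22_Mus held 8 regions here, of 10 on all autosomes. The highest score of the 25 windows was at an L1Md_T region in the second of these windows (21823334 to 21829398, score 200.3), 6064 bp long and also the longest. In the first window the highest and longest was at L1Md_F2 (20158491 to 20161156, 81.1), and in the third at L1Md_A (22444935 to 22448665, 133.2).

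On chromosome 14, 5 of the windows had mostly predicted genes (Gm), with some Rik genes, named nearest, and none of these belonged to a family listed here. Families were matched by gene symbol, so a family whose genes carry Gm or Rik symbols would be missed. The list describes Gm3002, in the first of these windows, as an alpha-takusan pseudogene. Between 3 and 8 Mb, 4 windows held 38, 27, 32 and 29 regions, and the window left out between the last 2, with 23, fell under the threshold. Of 80 genes with a promoter there 72 had a near copy. No repeat was named for 45 of the 126 regions, 38 were at L1Md_T and 5 at L1Md_A. All 5 autosomal regions at PB1D7, a short interspersed element, lay in these windows. The leading nearest genes were Gm10413 (10 regions), Gm2897 (8) and Gm5795 (5) in the first window, and Gm3264 (13), Gm5796 (11) and 4930555G01Rik (3) in the second. They were Gm3500 (11), Gm3383 (7) and Gm3488 (6) in the third, and Gm3558 (12), Gm10406 (5) and Gm3696 (4) in the fourth. Median scores were 11.5, 11.5, 12.2 and 14.4. The highest and longest region of the first was at L1Md_T (3173723 to 3177011, score 101.5).

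The window at 42 to 43 Mb of chromosome 14 was different in its repeats although 15 of its 17 genes had a near copy. It held 40 regions, all intergenic, of which 23 (57.5%) were at L1Md_T or L1Md_A and 2 lacked a repeat. Its median score per kb of 26.7 was the highest of the 19. Gm10377 was nearest to 18 regions, Gm17026 to 17 and 1700091H14Rik to 5, and the list describes Gm17026 as similar to the scaffold protein gene disks large homolog 5. The highest and longest region was at L1Md_A (42739097 to 42743683, score 132.1).

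The last pair of windows with near-copy promoters held amylase and olfactory receptor genes. The amylase window (chromosome 3, 113 to 114 Mb) held 30 regions. Amy2a5 and Amy2b encode pancreatic amylase, which digests starch, and were nearest to 16 and 4 of them, while the collagen gene Col11a1 was nearest to 8. The regions lay close together, with a median gap of 2.13 kb, the shortest of the 25 windows, and became 13 when regions with gaps of at most 5 kb were counted as 1. Introns held 15, and 11 had no repeat. The olfactory window (chromosome 2, 89 to 90 Mb) held 26 regions, and 3 of its 35 genes with a RefSeq promoter had a near copy. All 26 were nearest to an olfactory receptor, among them Olfr1257 (5), Olfr1228 (3) and Olfr1229 (3). It had 14 regions at L1Md_T or L1Md_A, 3 without a repeat, and a median score per kb of 25.7.

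**Figure D4:**
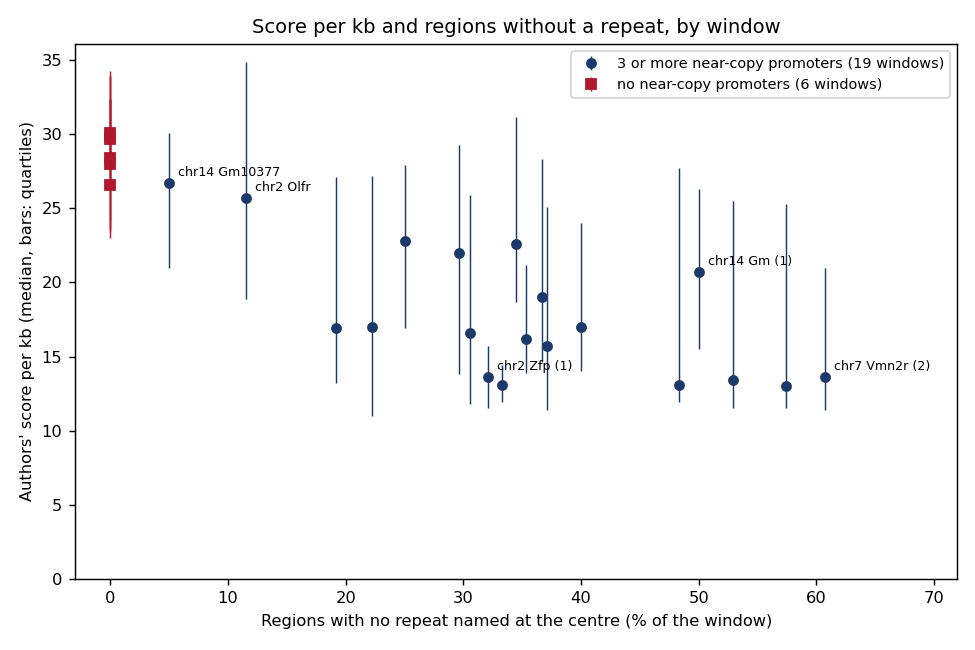
Median authors' score per kb of each window (points; bars are quartiles over its regions) against the share of its regions with no repeat named (percent). The 6 windows without near-copy promoters (red) lie at 0% between 26.6 and 30.1, and the 19 others (blue) run from 5% to 60.7% and from 26.7 down to 13.

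The 6 windows without near-copy promoters were L1-rich, and most were poor in genes. They held 25 to 33 regions each and 0 regions nearest to a gene of the listed families. Their protein-coding genes numbered 0 to 8 (median 0.5), against a median of 5 over all autosomal windows. The chromosome 1 window, with 8, lay above that median. The Zc3h15 window (chromosome 2, 83 to 84 Mb) had 33 regions, of which 26 were nearest to Zc3h15, 4 to Zswim2 and 3 to Fam171b. The window on chromosome 1 (44 to 45 Mb) had 32, nearest to 4930521E06Rik (12), Gulp1 (10), an adaptor of cell engulfment, and Mettl21e (10). In each of the other 4 windows every region was nearest to 1 of 2 genes. Unc5d, a netrin receptor gene, was nearest to 24 of 26 regions on chromosome 8 (29 to 30 Mb), and 1700008P02Rik to 24 of 25 on chromosome 3 (6 to 7 Mb). Mir6414 (14) and Cpeb2 (12) shared 26 on chromosome 5 (42 to 43 Mb), and Grin3a (13), a glutamate receptor subunit gene, and Cylc2 (12), a gene of the sperm head, shared 25 on chromosome 4 (50 to 51 Mb).

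In these 6 windows L1Md_T held 74 regions and L1Md_A 56. L1Md_A was the more frequent only on chromosome 4, with 13 against 6. The LINE share ran from 72.7% in the Zc3h15 window to 96.2% in the Cpeb2 window. The longest region of each window measured 2410 to 6021 bp and the highest score was 71.8 to 190.1. In the 19 windows with near-copy promoters these values were 1316 to 6064 bp and 28.9 to 200.3. With gaps of at most 5 kb closed, the 6 windows held 98 groups in place of 167 regions, between 11 and 20 each. In the 19 windows with near-copy promoters the same step left 499 groups of 701 regions.

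The gene names in the windows with near-copy promoters need care. For 214 of the 868 regions (24.7%), the start site implied by the listed distance lay more than 5 kb outside the RefSeq gene with that number, or the gene lay elsewhere, against 1.61% of the other autosomal regions. All 214 were in windows with near-copy promoters (30.5% of their regions). In the 147 other windows with near-copy promoters the share was 4.09% (61 of 1491 regions). A further 26 regions named a gene without a match in the RefSeq table. Vmn2r47 was named nearest to 24 regions in 3 windows, although RefSeq places it at 9816782 to 9841325, and 20 of these were not near that place. The same held for 15 of 16 regions named for Zfp967, 14 of 16 for Amy2a5 and 12 of 17 for Pramel50. Of 164 genes named nearest, 28 were named in 2 or more windows. Adjacent windows can share a nearest gene whose start is in place, so this count alone does not show misplaced names. It was not made for other windows. The 5 families with the most regions were Vmn1r (98), Vmn2r (84), Pramel and Oog (70), Zfp (30) and Olfr (26). Together with Amy (20), Speer (16) and Nlrp (2) they were the 8 of 66 listed families with any region here, and they accounted for 346 regions (39.9%, against 9.08% of the other autosomal regions). The share nearest to a listed family was 49.4% in the 19 windows. It was not lower, at 51.9% (774 of 1491 regions), in the 147 other windows with near-copy promoters.

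The threshold of 25 separated windows with nearly the same count. Just inside it, 2 windows held 25 regions, on chromosomes 3 and 4, and 4 held 26. Just outside, 3 held 24: on chromosome 13 (86 to 87 Mb), on chromosome 4 (21 to 22 Mb) and the Vmn1r window on chromosome 7 (23 to 24 Mb), of which only the last had near-copy promoters (14 genes). Over all 2413 windows the median was 7 regions and the mean 8.21. All 9 windows with 36 or more regions had near-copy promoters. The list has no value for input, so whether input was also dense in these windows was not tested.

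**Figure D5:**
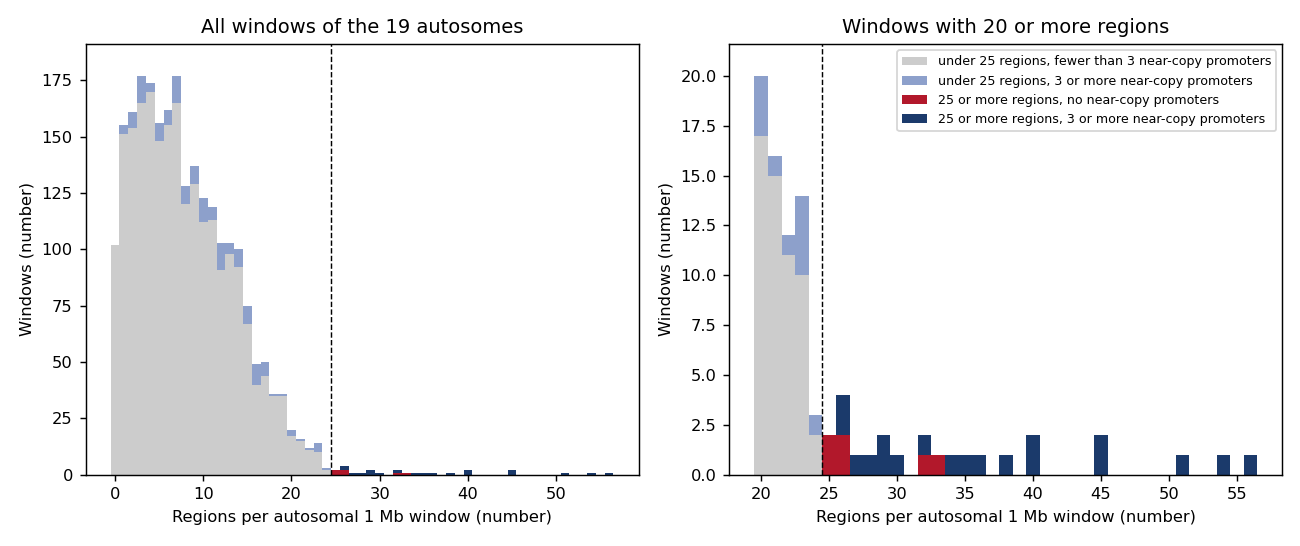
Number of autosomal 1 Mb windows (y) by the regions they held (x), for all windows (left) and those with 20 or more regions (right), coloured by near-copy promoters. The dashed line marks the threshold of 25. To its right the 6 windows without near-copy promoters (red) end at 33 regions and the others (dark blue) reach 56.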

How the data were processed

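The submitters' processing notes name Bowtie2 2.2.2, SAMtools and HOMER 4.6 with build mm10, without roles. Per the file headers the deposited list was written by HOMER's annotation program; the score is the authors' own value per region, its unit not stated, and 0 columns hold values per library. The authors' pooling, control and peak settings are not given in the sources used here.

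Positions are those of the deposited list. Genes and promoters came from RefSeq (GRCm38.p6, the assembly that mm10 names). Genes were matched by gene number, which gave current symbols for all but 26 of the 868 regions. Near-copy promoters were found with megablast (BLAST+ 2.17.0) and pairs were aligned globally (Biopython 1.88). Windows were counted on each chromosome between its outermost RefSeq genes or regions. Both searches were tested on simulated data. In each window up to 3 genes named nearest to the most regions are given, and for the 10 densest windows the longest region and that with the highest score. The members, the 66 gene families, the near-copy rule and the grouping of windows were chosen with earlier results of these data known. No test was run: the planned comparison of ChIP with input needs values per library. Values came from Python 3.11.15 with SciPy 1.17.1 and pandas 2.3.3.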

Additional observations from a re-analysis of the deposited data

How the results depend on the processing

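No paired analysis was possible because the deposited values are not split by library, and no replicate could be left out. Shifting the windows by 500 kb gave 24 windows with 785 regions, and the share nearest to a listed family moved to 36.2%. Assigning regions by their start, and leaving out the densest window, moved no value past its interval. With 20 or more regions there were 90 windows and 2262 regions, with 69.0% at LINE elements, 13.4% at LTR elements, 59.6% at L1Md_T or L1Md_A, 12.6% without a repeat, a median length of 632 bp, 26.7 per kb and 24.6% nearest to a listed family. With 30 or more there were 15 windows, with 43.3% at LINE elements, 32.1% at L1Md_T or L1Md_A, 31.6% without a repeat and 16.6 per kb. Counting regions with gaps of at most 5 kb as 1 left 13 windows with 531 regions, all among the 25. All 6 windows without near-copy promoters dropped out, with 11 to 20 groups each. The 13 windows had 36.9% at LINE elements, 23.9% at L1Md_T or L1Md_A, 38.0% without a repeat, 14.9 per kb and 52.5% nearest to a listed family. In the 50% of autosomal regions with the higher score 0 windows reached 25, so 0 regions were left to describe; this setting leaves fewer regions by construction. Keeping only regions with a repeat, chosen after seeing the data, left 12 windows and 366 regions, with 66.7% at LINE elements, 24.0% at LTR elements, 52.5% at L1Md_T or L1Md_A, 0% without a repeat by construction, a median length of 627 bp, 24.8 per kb and 25.1% nearest to a listed family. For the other shifts the cause was not tested. Depth per library is unknown and limits what can be said of low scores.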
